A study of Mus musculus with 12 samples.

Results

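Cycling haematopoietic stem cells (HSCs) with an activated Nras gene were compared with wild-type cycling HSCs. HSCs are the bone marrow cells that renew themselves and give rise to every blood lineage. The comparison takes the 3 samples titled Nras GFP- against the 3 titled wild-type GFP-, 6 of the 12 samples of the series. The Nras mice are labelled NrasG12D/+, 1 mutant and 1 normal copy of the gene, and the other mice wild type. All mice, the controls included, drank doxycycline for 6 weeks and were followed for 12 more weeks after its removal before marrow was taken. Cells were then sorted by flow cytometry, and the labels call the GFP- cells cycling and the GFPhigh cells quiescent. In label-retention systems of this kind doxycycline switches on a GFP-tagged protein that is diluted as cells divide, so that cells without GFP have divided more. The labels do not give the promoter behind the GFP, how or in which cells the Nras allele was switched on, the age of the mice, or whether a biological replicate was 1 animal or a pool. The p-values therefore measure the spread between these samples.

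NRAS is a membrane-bound switch that is on when it holds GTP and off when it holds GDP. Exchange factors such as the SOS and RASGRP proteins turn RAS on, and GTPase-activating proteins such as neurofibromin (Nf1) turn it off. The G12D change leaves the protein poorly able to hydrolyse GTP and therefore active for longer. Active RAS engages the RAF-MEK-ERK kinase cascade and the PI3K-AKT pathway, and ERK in turn induces its own brakes, among them the dual-specificity phosphatases (Dusp) and Sprouty proteins. In blood, RAS lies downstream of cytokine receptors such as KIT, and NRAS mutations are a recurrent lesion in myeloid malignancies.

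Total RNA was measured on Affymetrix arrays, 1 per sample, and the deposited values are MAS5 signals, which are intensity units on a linear scale. The median signal of an array was 44, 51.9 and 95.7 in Nras GFP- replicates 1, 2 and 3 and 101, 80.1 and 95.4 in the wild-type GFP- replicates. Nras GFP- replicate 1 stood apart, with a limma array weight of 0.308 against 0.944 to 2.46 in the other 5. Several results are therefore given with and without it, and some that are given once also move without it. Replicate 3 of both groups differed in Xist, the noncoding RNA of X inactivation. It read 102 and 205 in replicate 3 of wild-type and Nras GFP-, and 5773 to 9372 in the other 4 samples. Eif2s3y, another sex-linked transcript, went the other way, at 3944 and 4545 in replicate 3 and 2.3 to 75.2 in the other 4. Replicate 3 thus stood apart alike in both genotypes. Genes were tested where their probe set lay brighter than its array's median on 3 or more of the 12 arrays, which left 12085. Differences are log2 Nras GFP- minus wild-type GFP-, so that 1 unit is a 2-fold difference, and are given ± SE from limma.

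Before the genotypes were compared, the labelled cell type was set against its markers. All 7 HSC markers on the array (Kit, Slamf1, Procr, Mecom, Hlf, Esam and Fgd5) lay above the array median in all 6 samples. Mecom, a transcription factor of long-lived HSCs, read 7713, 5520.2 and 4835 in Nras GFP- and 5486, 7338 and 4673 in wild-type GFP-. Of the 4 genes expected to be low or absent in the most immature HSCs, Il7r read 2.6 to 18.7, below the median in all 6 samples. Cd48 lay above the median in 1 of 3 samples of each genotype, Flt3 in 2 of 3 mutant and 3 of 3 wild-type samples at 94.1 to 539.7, while Cd34, a marker of HSCs leaving the most dormant state and of progenitors, lay above it in all 6, at 1343 to 3987. The signals of the B cell markers summed to 29.8 to 105 in all 6 samples and those of T and NK cells to 111 to 548. Other sums were higher, at 2875 to 4389 for monocyte, 517 to 3944 for megakaryocyte, 160 to 3515 for endothelial and stromal and 48.1 to 1753 for erythroid markers. Granulocyte markers summed to 4018, 4371 and 4618 in Nras GFP- and to 12419, 1986 and 10611 in wild-type GFP-.

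Nras itself was described first, as a check of the labels. Its transcript read 3567, 3846 and 3530.4 in Nras GFP- and 3209.8, 3159 and 2881 in wild-type GFP-, so the groups did not overlap. The difference was 0.24 ± 0.36 (limma adjusted p = 0.98), within its error. Its 3 probe sets differed by 0.24 to 0.45, all higher in Nras GFP-. The mutation changes 1 base of the coding sequence and the array measures the amount of transcript, so this reading does not tell the mutant copy from the normal one and checks the genotype labels no further.

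Across the genome the genotypes differed little relative to the spread between samples. No gene passed a Benjamini-Hochberg adjusted p under 0.05 in limma, which makes 0% of the 12085 tested. At an unadjusted p under 0.05 there were 530 genes, or 4.39%, where 604 genes are 5%. Of these, 117 were higher in Nras GFP- (0.968% of tested genes) and 413 lower (3.42%). The groups did not overlap in 1304 genes (10.8%), 492 of them higher (4.07%) and 812 lower (6.72%). With 3 samples in each group, a share of 0.1 of all orders of the samples puts the groups apart. Groups that lie apart in a gene named below are therefore a description. The smallest adjusted p was 0.26, for Gem, followed by 0.30 for Dock3, and the third in order was 0.98. No gene named below other than Gem and Dock3 had a limma adjusted p under 0.979, so their values are given with the SE alone and with whether the groups overlapped.

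Lower genes outnumbered higher ones except among bright genes. Ordered by mean signal into 4 equal groups of genes, the median difference was -0.33, -0.44 and -0.23 in the 3 dimmer groups and 0.02 in the brightest. The counts at an unadjusted p under 0.05 were 33 higher and 119 lower in the dimmest group, 14 and 158 in the next (median signal 227), 31 and 92 in the one after it (median signal 744) and 39 and 44 in the brightest. The median SE fell from 1.18 in the dimmest to 0.42 in the brightest group. Over all tested genes the median difference was -0.18, with 40.6% of genes above 0. It became -0.04 without Nras GFP- replicate 1, -0.03 after quantile normalization and 0.16 after centring each array on its median. The share of higher genes among those at an unadjusted p under 0.05 was 22.1% as deposited, 30.9% after quantile normalization and 42% after median centring. A list's median is therefore read below against -0.18. In the brightest group 52.5% of genes were above 0, and the lists were not matched to genes of like signal.

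**Figure D1:**
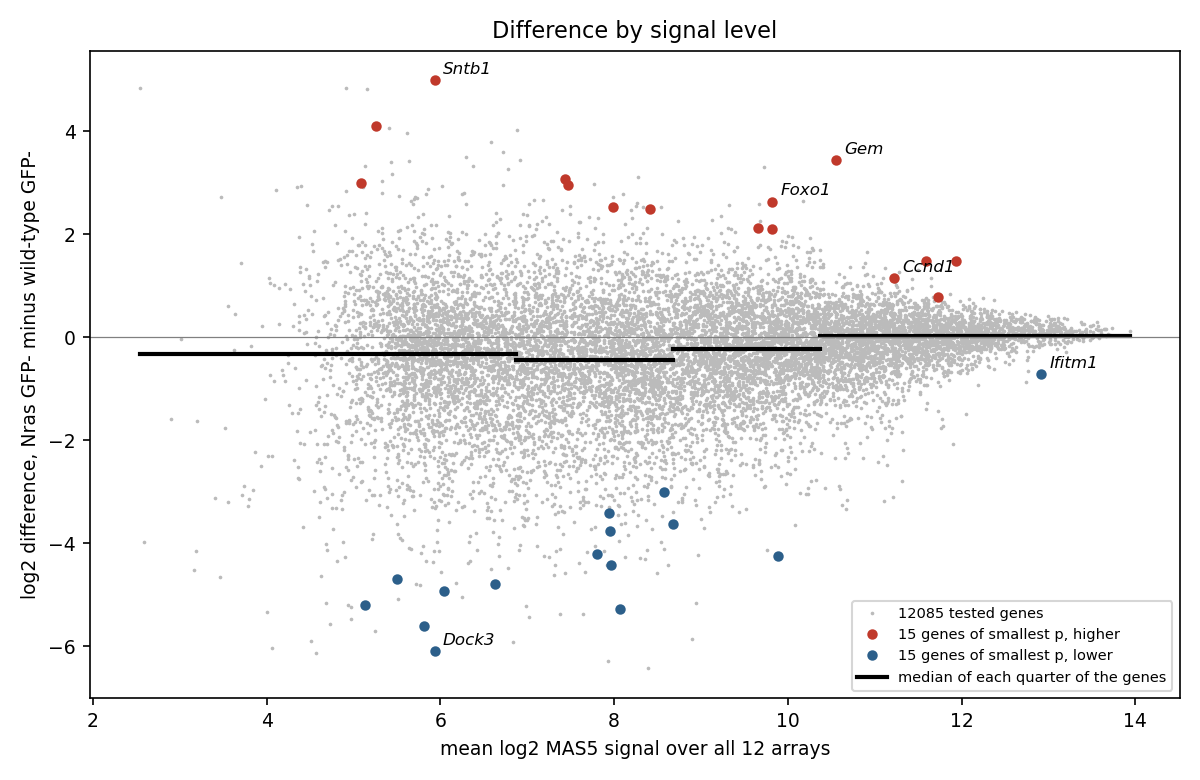
Log2 difference between Nras GFP- and wild-type GFP- (vertical axis) against the mean log2 MAS5 signal over all 12 arrays (horizontal axis), 1 grey point for each of the 12085 tested genes. Black bars are the medians of 4 equal groups of genes by signal, from -0.33 in the dimmest to 0.02 in the brightest. Coloured points are the 15 genes of smallest p in each direction, among which Gem and Ifitm1 are bright and Dock3 is dim.

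The genes of smallest p that were higher in Nras GFP- joined a RAS-superfamily protein, a G1 cyclin and a forkhead factor with genes of varied function. The 15 named are those of smallest p whose groups did not overlap and whose Nras GFP- signals all lay above the array median. They were chosen by these values, which are therefore a description, and none passed the adjusted threshold. Gem encodes a GTP-binding protein of the RGK family that inhibits voltage-gated calcium channels. It read 5560.1, 3974 and 3613 in Nras GFP- and 504, 626 and 199 in wild-type GFP-. Every mutant sample lay far above every wild-type sample, a difference of 3.44 ± 0.53 (limma adjusted p = 0.26). Gem had 1 probe set, of the shared kind that matches several transcripts, so Gem could not be read without shared probe sets. Its limma adjusted p ranged from 0.026 to 1 over 23 alternatives, with the lowest under a setting added after the data were seen.

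Ccnd1 encodes cyclin D1, which drives cells through G1 with CDK4 and CDK6 and is induced through ERK. It read 4440.5, 3311 and 3084 in Nras GFP- and 2038, 1478 and 1358 in wild-type GFP-. All mutant samples were higher, by 1.16 ± 0.34, and its 3 probe sets differed by 0.48 to 1.16. Ccnd2, another D cyclin, read 9189, 6468 and 6206 against 5529, 6716 and 5878, groups that overlapped (0.25 ± 0.20). Foxo1, a transcription factor that AKT keeps out of the nucleus and that preserves HSCs under oxidative stress, read 2735, 1622 and 1041 against 700.2, 167 and 164. That is 2.63 ± 0.76, but its 4 probe sets ranged from -0.63 to 2.63, and without shared probe sets, those that match several transcripts, the difference was -0.27.

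Among the other higher genes, Dnpep, an aspartyl aminopeptidase, read 10287, 6565 and 4659.5 against 2821, 2512 and 1993 (1.49 ± 0.40), and its 5 probe sets ran from -1.83 to 1.49. The sign turned to -1.83 without shared probe sets. Chmp7, which recruits ESCRT-III proteins to the reforming nuclear envelope, read 3495, 3202 and 1905 against 663, 405 and 982 (2.11 ± 0.57). Cops2, a subunit of the COP9 signalosome, was higher by 1.48 ± 0.45, Stam, an adaptor that sorts ubiquitinated receptors on endosomes, by 2.54 ± 0.80, and Ubap2 by 2.12 ± 0.70. The other probe set of Cops2 differed by only 0.06. In Stam the Nras GFP- signals of 1024, 211 and 767 lay above wild-type signals of 136, 96.3 and 64.5, while 2 of its 4 probe sets differed by -0.30 and -0.18.

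Several of the higher genes were dim in wild-type cells. Sntb1, a syntrophin of the membrane skeleton, read 2202, 1913 and 475 against 81.6, 31.2 and 24.2 (5.0 ± 1.29), and Spag1, an assembly factor for ciliary dynein, 639, 119.7 and 185 against 61.1, 4.1 and 11.1 (4.11 ± 1.25). Ndufs5, a subunit of respiratory complex I, read 1248, 557 and 518 against 115, 75.5 and 87.1 (2.96 ± 0.93). The matrix metalloproteinase Mmp19 differed by 3.0 ± 0.97 on signals of 106 to 124 against 6.8 to 35.5. Slc22a21, a carnitine transporter, differed by 3.08 ± 0.90, Ankra2 by 2.49 ± 0.82 and Bzw1 by 0.78 ± 0.26. The other probe set of Ankra2 went the opposite way (-1.05, every mutant sample lower), and 1 of the 5 of Bzw1 was at -0.02. In 8 of the 15 genes all 6 samples lay above the array median, and in 4 others every wild-type sample lay below it.

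**Figure D2:**
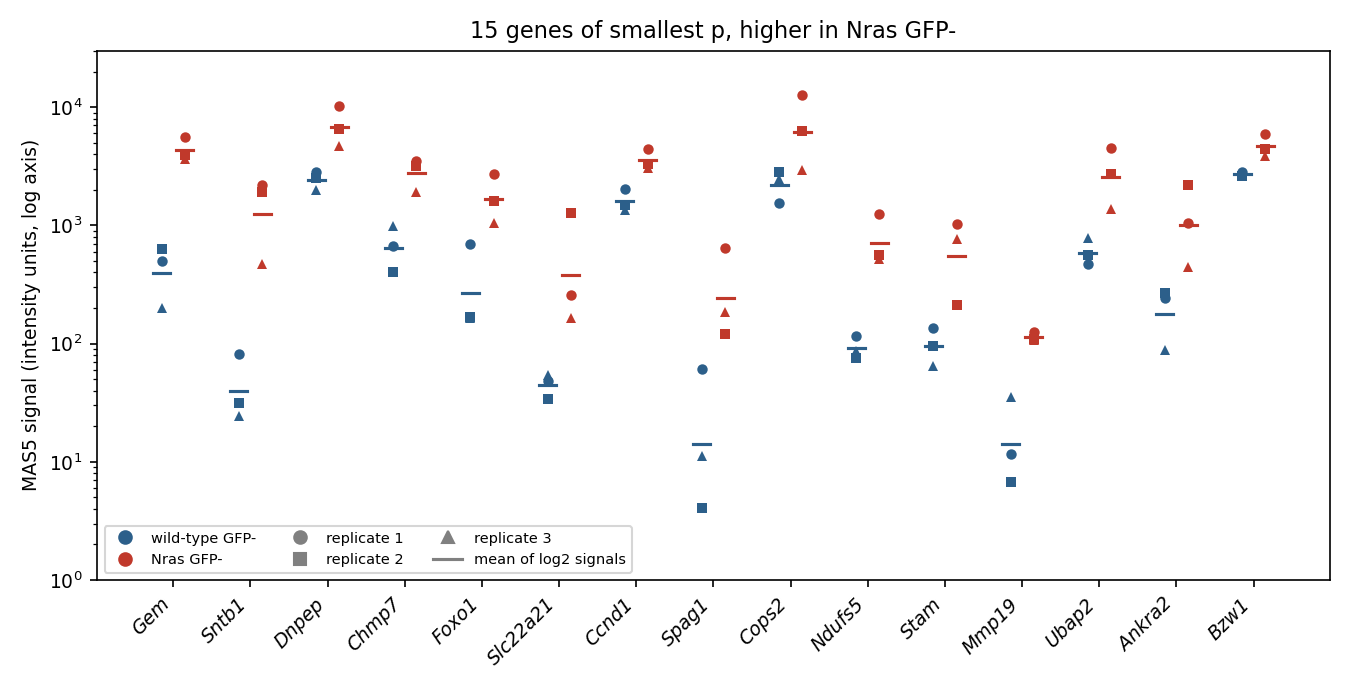
MAS5 signal (log axis) of the 15 genes of smallest p that were higher in Nras GFP-, each point 1 array, with the replicate shown by the symbol and the mean of log2 signals by a bar. In Gem the Nras GFP- samples lie between 3613 and 5560.1 and the wild-type samples between 199 and 626.

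The 15 genes of smallest p that were lower in Nras GFP- were mostly dim in the mutant samples. In 7 of them every Nras GFP- sample lay below its array median, and in 2 of them, Rdh13 and Ifitm1, all 6 samples lay above it. They were chosen by the same rule with the genotypes exchanged, so that all wild-type samples lay above the array median. Dock3, an exchange factor for the GTPase RAC, read 3.2, 1.8 and 17.3 in Nras GFP- and 180.5, 716 and 243 in wild-type GFP- (-6.09 ± 1.02, limma adjusted p = 0.30). Every mutant sample was near the bottom of its array, and a second probe set, which missed the filter, differed by 1.79. Without Nras GFP- replicate 3 the adjusted p of Dock3 was 0.042, and 0.042 to 1 over 22 alternatives.

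Ifitm1, an interferon-induced membrane protein with a high signal in these cells, read 4396, 4970.1 and 4694 in Nras GFP- and 6515, 8579 and 8122 in wild-type GFP-. All mutant samples were lower and lay close together, at -0.72 ± 0.18 (limma adjusted p = 0.98). Under quantile normalization with array weights it passed the threshold at an adjusted p of 0.0095, together with Gem at 0.026. Under quantile normalization with a pseudocount of 100 both passed at 0.029. These 2 combinations were added after the data were seen. With quantile normalization, array weights or the pseudocount of 100 alone no gene passed. The smallest limma adjusted p of any gene was then 0.072, 0.068 and 0.11. Over its 24 alternatives the adjusted p of Ifitm1 ran from 0.0095 to 1.

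Timp3, an inhibitor of metalloproteinases, read 15, 7.1 and 39.5 against 512, 249 and 326 (-4.42 ± 0.92), and its 4 probe sets ran from -4.42 to 0.57. Ncam2, a neural cell adhesion molecule, read 0.9, 18.1 and 3 against 346, 82.6 and 199.9 (-5.61 ± 1.29). Tlnrd1, related to the talin rod that binds actin, differed by -4.93 ± 1.18, and its other probe set by 2.82. Rnd2 read 33.5, 29.7 and 304 against 393, 985 and 921 (-3.40 ± 0.91), and Rab40c, a RAB GTPase, differed by -3.77 ± 0.95.

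Wfs1, the membrane protein wolframin of the endoplasmic reticulum, read 230.2, 107 and 49.2 against 2528, 1197 and 2758 (-4.25 ± 0.99). Txndc5, a disulfide isomerase there, read 43.4, 45.4 and 210.4 against 508, 918 and 1676 (-3.63 ± 0.88). Rdh13, a mitochondrial retinol dehydrogenase, read 76.3, 106 and 355 against 1534, 1039 and 912 (-3.0 ± 0.72). Acot4, a peroxisomal thioesterase, differed by -5.20 ± 1.04, Gdpd1, a phosphodiesterase of lysophospholipids, by -5.28 ± 1.31, and Aopep, an aminopeptidase, by -4.21 ± 1.06. Such sizes depend on how signals near 0 are treated. With a pseudocount of 100 the difference was -1.31 for Acot4, -2.48 for Gdpd1, -2.0 for Dock3 and -1.44 for Ncam2, against 3.12 for Gem and -0.70 for Ifitm1. Ica1l and Sp3os, the latter antisense to Sp3, differed by -4.79 ± 1.21 and -4.68 ± 1.15. On their other probe sets Gdpd1 differed by -0.36, Acot4 by -0.96 and Aopep by -1.07 to -0.06, far less than on the chosen ones.

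**Figure D3:**
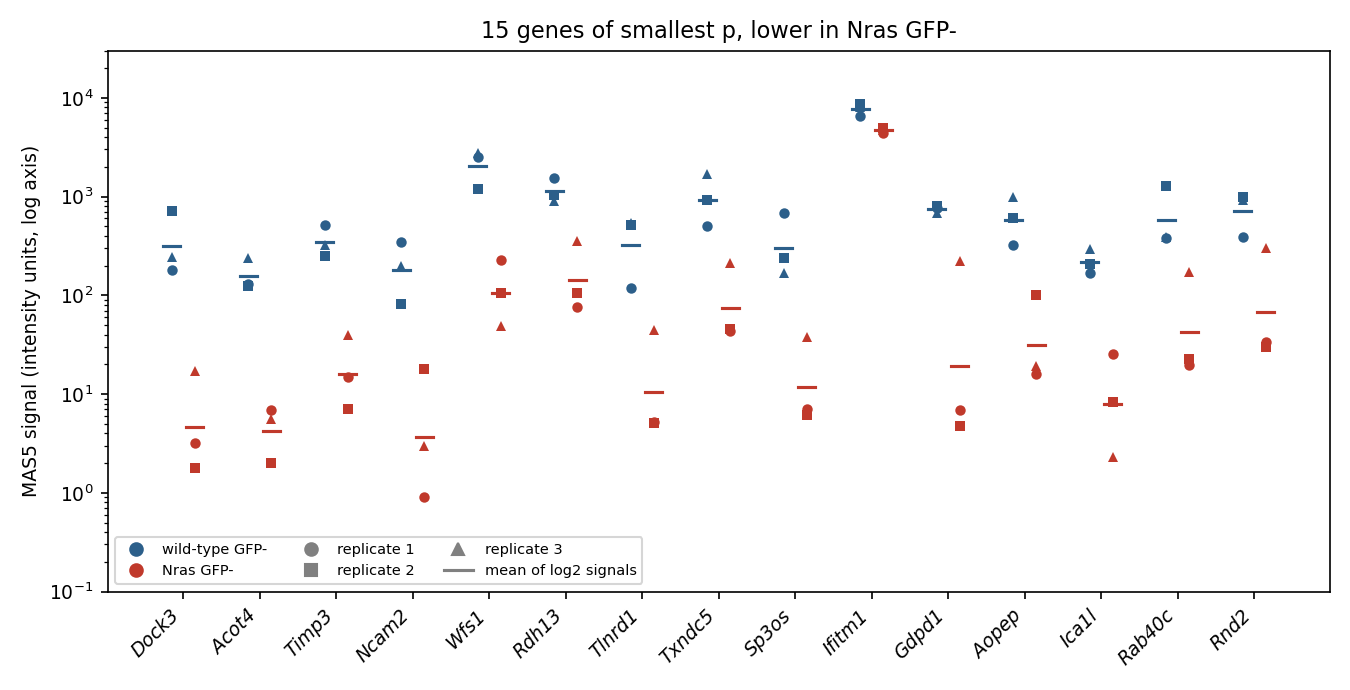
MAS5 signal (log axis) of the 15 genes of smallest p that were lower in Nras GFP-, drawn as for the higher genes. Ifitm1 is the bright exception, at 4396 to 4970.1 in Nras GFP- and 6515 to 8579 in wild-type GFP-, while Dock3 reads 1.8 to 17.3 in the mutant samples.

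No gene of the RAS pathway passed the adjusted threshold. Among 19 tested genes of ERK feedback and output, 13 were higher in Nras GFP- and 6 lower, and the median difference was 0.23 against -0.18 over all genes. At an unadjusted p under 0.05, 3 of the 19 were higher (0.968% of all tested genes) and 0 lower. They were Ccnd1, Dusp1 and Etv4. Without Nras GFP- replicate 1 the median was 0.11 against -0.04 for all genes, and over all alternatives it ran from 0.11 to 0.56.

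Dusp1, a phosphatase that switches off MAP kinases, read 4176, 4926 and 3446 in Nras GFP- and 2279.8, 1342 and 2061 in wild-type GFP-. No mutant sample overlapped with a wild-type one, and the difference was 1.16 ± 0.42. Etv4, an ETS factor induced by ERK, read 566, 41.7 and 325 against 10.3, 52.3 and 66.1, where the mutant sample at 41.7 lay among the wild-type ones (2.58 ± 1.09). Its relative Etv5 read 3673, 2092 and 3165 against 2182, 1193 and 986 (1.08 ± 0.73), again overlapping, with 1 of its 3 probe sets at -0.25. Dusp6, the phosphatase most specific for ERK, differed by 0.54 ± 0.39, Myc by 0.33 ± 0.29 and the inhibitor Spry2 by 0.07 ± 0.58, all 3 with overlapping groups. The sign of Spry2 turned under 6 of its alternatives. The lower members of the list were Dusp7 (-1.31 ± 0.80), Ier3 (-0.78 ± 0.54), Spry1 (-0.75 ± 0.83), Dusp5 (-0.69 ± 0.76), Dusp2 (-0.45 ± 0.66) and Dusp4 (-0.10 ± 0.85). Every mutant sample was lower in Ier3, and the groups overlapped in the others. Phosphatases of the Dusp family and Sprouty genes thus went both ways.

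The promoter of Dusp1 is shown with those of a pair of lower genes that belong to the interferon list, Gbp3 and Ifitm1, because these 3 have the smallest p of their lists among the genes whose promoter the RefSeq table holds. Each runs from 250 bases before the start of transcription to 50 after it, on the gene's own strand in build GRCm38.p6. Positions are chr17:26508423-26508722 on the minus strand for Dusp1, chr3:142559794-142560093 on the plus strand for Gbp3, the first of its 2 entries, and chr7:140967826-140968125 on the plus strand for Ifitm1. Capitals mark matches to the cAMP response element TGACGTCA or to the interferon-type element GAAANNGAAA, searched on both strands.
Dusp1: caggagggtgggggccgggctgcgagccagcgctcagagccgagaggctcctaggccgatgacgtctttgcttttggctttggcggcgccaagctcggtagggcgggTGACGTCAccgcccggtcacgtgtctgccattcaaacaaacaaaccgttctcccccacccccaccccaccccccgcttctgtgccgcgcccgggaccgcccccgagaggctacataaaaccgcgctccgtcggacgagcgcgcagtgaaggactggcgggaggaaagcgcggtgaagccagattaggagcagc
Gbp3: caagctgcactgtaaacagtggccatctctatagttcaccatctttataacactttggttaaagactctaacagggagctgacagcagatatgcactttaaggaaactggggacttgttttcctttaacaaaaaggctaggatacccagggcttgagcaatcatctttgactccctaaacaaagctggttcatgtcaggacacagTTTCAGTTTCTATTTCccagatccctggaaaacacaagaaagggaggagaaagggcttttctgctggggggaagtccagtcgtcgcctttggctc
Ifitm1: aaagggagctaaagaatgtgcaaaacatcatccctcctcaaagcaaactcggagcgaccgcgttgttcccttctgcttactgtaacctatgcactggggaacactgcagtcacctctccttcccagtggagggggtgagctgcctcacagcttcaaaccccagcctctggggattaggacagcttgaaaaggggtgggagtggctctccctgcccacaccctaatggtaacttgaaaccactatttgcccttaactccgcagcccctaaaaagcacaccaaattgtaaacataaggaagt
The cAMP response element was matched once, in Dusp1, from 143 bases before the start, and 1.79% of 32851 promoters of this length hold it. The interferon-type element was matched in 2 overlapping places in Gbp3, from 45 bases before the start, and 3.44% of promoters hold it. The other Gbp3 entry, chr3:142560106-142560405, holds 0 matches to it. The Ifitm1 window held neither set of letters, which says nothing about the factors that act there.

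The switches and kinases upstream of these outputs showed no member at an unadjusted p under 0.05. Of 10 tested RAS-family GTPases 1 was higher, Nras, and 9 lower, with a median of -0.61, but without Nras GFP- replicate 1 the median was -0.07. Rala, a GTPase of the exocyst pathway, read 3.2, 143 and 1195 against 1208, 369.7 and 869, with the first 2 mutant samples below every wild-type one and the third among them (-3.16 ± 1.69). Mras differed by -1.05 ± 0.74. Among 19 activators and inhibitors of RAS the median was -0.20. Nf1, the GTPase-activating protein neurofibromin, read 587, 1992 and 516 against 397, 99.0 and 333, and Shc1, an adaptor that links receptors to SOS, read 1664, 2033 and 1141 against 965, 654 and 653. The mutant samples were higher in both, by 1.84 ± 0.99 and 1.08 ± 0.59. Their other probe sets differed by less, by 0.16 and 1.11 in Nf1 and by 0.06 in Shc1. Rasgrp2, an exchange factor, differed by 1.51 ± 0.82 with overlapping groups, and 2 of its 4 probe sets by -1.69 and -0.82.

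The RAF-MEK-ERK kinases and scaffolds had a median of 0.16 over 11 genes, 6 higher and 5 lower. Shoc2, a scaffold that helps to activate RAF, differed by -0.84 ± 0.49, and Mknk2, a kinase that ERK activates, by 0.40 ± 0.23. Over 19 genes of the PI3K, AKT and mTOR pathway the median was -0.15, close to that of all genes, and 0.08 without Nras GFP- replicate 1.

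Of 17 tested cytokine receptors 2 were higher and 15 lower in Nras GFP-, with a median of -0.77, or -0.56 without Nras GFP- replicate 1. Over all tested genes 40.6% were higher. At an unadjusted p under 0.05, 1 of the 17 was higher, against 0.968% of all genes, and 1 lower, against 3.42%. Csf2ra, the specific chain of the GM-CSF receptor, read 14.6, 88.1 and 275 against 168, 641 and 1442, and 1 wild-type sample lay within the mutant range (-2.92 ± 1.18). Csf3r, the G-CSF receptor, read 1118, 371 and 398 against 221, 70.9 and 233, with every mutant sample higher (1.83 ± 0.80). Cxcr4, the receptor that holds HSCs in the marrow niche and counted with this list, read 4030.5, 4736 and 3694 against 1873, 3194 and 3475 (0.59 ± 0.29).

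Kit, the receptor for stem cell factor, read 2974, 2384 and 3075 in Nras GFP- and 3079, 3371 and 3820.2 in wild-type GFP-. The groups did not overlap, at -0.29 ± 0.29, and the sign turned to 0.05 after median centring. Its other probe set was at 0.05. In the JAK-STAT5 list 7 of 19 genes were higher and 12 lower, with a median of -0.24, near the share and the median over all genes. Without Nras GFP- replicate 1 the list's median was -0.04. The 1 gene lower at an unadjusted p under 0.05, against 3.42% of all genes, was Socs2, a feedback inhibitor of cytokine signalling, which read 7, 240.4 and 80.5 against 306, 1322 and 973 (-3.83 ± 1.41). Cish, another STAT5-induced inhibitor, read 18.1, 206 and 166 against 227, 135 and 104, with overlapping groups (-0.79 ± 1.12). Stat5a and Stat5b differed by -0.16 ± 0.31 and 0.46 ± 0.59, Pim3 by -1.21 ± 0.83 and Gfi1, a repressor that restrains HSC proliferation, by -1.47 ± 0.81, each within 2 SE. Of the 3 probe sets of Pim3, 1 was at 0.41.

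Cell cycle genes were higher more often than all genes, again with no gene past the adjusted threshold. Of 31 tested genes of G1/S and DNA replication 20 were higher and 11 lower, with a median of 0.25, and of 28 genes of G2/M and mitosis 19 were higher and 9 lower, with a median of 0.45. Over all tested genes 40.6% were higher. Without Nras GFP- replicate 1 the medians were 0.22 and 0.34, and without replicate 3 of that group 0.13 and 0.14. At an unadjusted p under 0.05, 3 of these 59 genes were higher, against 0.968% of all genes, and 0 lower, against 3.42%.

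Pcna, the sliding clamp of DNA polymerase, gave the smallest error among them. It read 7694, 8493 and 8054 in Nras GFP- and 6397, 6520.1 and 6778 in wild-type GFP-, all mutant samples higher by a small margin (0.30 ± 0.14). Rfc4, a subunit of the clamp loader, read 2393, 1698 and 986 against 449, 242 and 959.9 (1.75 ± 0.75), and Gins2, a subunit of the replicative helicase, 1141, 1646 and 1001 against 440.5, 305 and 981 (1.28 ± 0.69). In both the lowest mutant sample was close to the highest wild-type one.

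Among mitotic genes, Kif20a, a kinesin of cytokinesis, read 9155, 2309.5 and 2270.3 against 1419.5, 362 and 431 (2.59 ± 0.95). Kif23, a kinesin of the central spindle, read 1260.4, 2256 and 1686 against 862, 154 and 948 (1.75 ± 0.93). Both were higher in every mutant sample. The other probe sets of Kif23 differed by -0.19 and by 3.01, the latter on a probe set that missed the filter. Cdc25c, which activates CDK1 at entry into mitosis, differed by 3.33 ± 1.94 with overlapping groups. Mki67, the usual marker of proliferating cells, read 7996, 3629 and 7084 against 5104, 3793 and 4461, and Cdk1 read 565, 451 and 860.4 against 459, 440.5 and 472. Their differences of 0.42 ± 1.19 and 0.40 ± 0.75 were within their errors.

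Inhibitors of the cycle went both ways. Cdkn2d, the INK4-family inhibitor p19, read 2.8, 71.3 and 288 in Nras GFP- and 447, 467 and 246 in wild-type GFP- (-3.27 ± 1.30), with the third mutant sample among the wild-type ones. Cdkn1c, the inhibitor p57 that is abundant in quiescent HSCs, read 203, 484 and 799 against 278, 538 and 230.5 (0.40 ± 0.69), and without the mutant sample at 799 it differed by -0.06. The list of CDK inhibitors and RB family genes, which also holds D cyclins, had a median of 0.21, with 11 of 18 genes higher.

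The lists of HSC identity and quiescence were centred near 0. Of 29 identity genes 16 were higher and 13 lower, with a median of 0.06, or -0.08 without Nras GFP- replicate 1. None was at an unadjusted p under 0.05. Procr, the protein C receptor that marks HSCs, read 1473, 2753 and 3013 in Nras GFP- and 3280.5, 3707 and 3923 in wild-type GFP-. All mutant samples were lower, by -0.66 ± 0.36. Gata2, a factor needed for HSC survival, read 4176, 2856 and 2207 against 2201, 1349.8 and 1644, all mutant samples higher (0.81 ± 0.39), and Fli1 differed by -0.78 ± 0.42, with its other probe set at 0.55. Slamf1, the CD150 antigen, differed by 1.05 ± 0.89, with 1 of its 3 probe sets at -3.08. Cd34, Flt3 and Cd48 differed by -0.12 ± 0.89, -0.87 ± 1.37 and -2.01 ± 2.06, each with overlapping groups.

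In the quiescence list 13 of 26 genes were higher and the median was 0.02. The member of smallest p on the higher side was Foxo1, described above. On the lower side it was Tcf7l2, a factor of WNT signalling, which read 44.4, 653 and 508 against 1096, 1126 and 1893 (-2.44 ± 0.87), lower in every mutant sample. Its other 2 probe sets that passed the filter differed by 0.39 and 0.49, and another that missed it by -0.36.

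Lists of growth and energy metabolism had medians near 0 or below it. The medians were 0.05 over 29 genes of ribosome biogenesis and MYC targets, -0.03 over 19 cytoplasmic ribosomal proteins, 0.07 over 21 translation initiation factors and 0.05 over 21 genes of glycolysis and hypoxia. Nolc1, a nucleolar factor of ribosome assembly, read 5911, 5569.9 and 3451 against 3434, 3279 and 3343 (0.53 ± 0.42), higher in every mutant sample but by little in the third. Slc2a1, the glucose transporter GLUT1, read 3329.7, 1969 and 2121 against 1679, 1042 and 1286 (0.88 ± 0.43), and Bnip3, a hypoxia-induced mitophagy receptor, read 630.1, 1086 and 1067 against 1836, 1939 and 1701 (-1.02 ± 0.54). Neither pair of groups overlapped on these probe sets, but the other 2 of Slc2a1 differed by -0.48 and -0.34. Of the 3 probe sets of Nolc1, 1 was at -0.53.

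Of 28 genes of oxidative phosphorylation 7 were higher and 21 lower, with a median of -0.31 that became 0.04 without Nras GFP- replicate 1. Sdhb, the iron-sulphur subunit of succinate dehydrogenase, read 669.8, 989.8 and 1336 against 1887, 1965 and 1664 (-0.93 ± 0.42) and was the 1 member at an unadjusted p under 0.05. Cox5a read 17.3, 1663 and 3891 against 3444, 4741 and 3100.1 (-2.94 ± 1.52), a difference set by its first mutant sample, and Ndufs8 differed by -1.0 ± 0.52. The proteasome subunits behaved alike, with 7 of 27 genes higher and a median of -0.20 that became 0.15 without the same array. Psmd1, a subunit of its regulatory particle, read 5575, 4704 and 4063 against 3636, 3447 and 3418 (0.44 ± 0.34).

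Stress genes did not go one way. The immediate early genes, which also respond to cell isolation, had a median of 0.27, with 18 of 25 genes higher. The p53 targets had a median of -0.23, with 6 of 18 genes higher, and without Nras GFP- replicate 1 the median was 0. Gadd45a, a growth arrest gene in both lists, read 1.4, 4.7 and 269 against 640.5, 801 and 758 (-5.92 ± 1.91). All mutant samples were lower, the third far less so. Perp, a p53-induced membrane protein, read 1.7, 6.2 and 9.5 against 189, 89.2 and 77.8 (-4.56 ± 1.49). The heat shock list had a median of 0.10, and its members of smallest p, Bag3 and Dnajb9, differed by -2.98 ± 1.52 and -0.47 ± 0.26.

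Interferon response genes were lower in Nras GFP- by the full set of arrays. Of 22 tested genes 4 were higher and 18 lower, with a median of -0.52, and 2 were lower at an unadjusted p under 0.05 (3.42% of all genes). Without Nras GFP- replicate 1 the median was -0.01, and without any other single sample it lay between -0.71 and -0.46. Ifitm1, given above, and Gbp3, an interferon-induced GTPase, were the 2. Gbp3 read 262, 585 and 1359 against 2060.0, 2806 and 3096, with every mutant sample lower (-2.14 ± 0.59). Usp18, the protease that removes ISG15, read 13.7, 52.3 and 181 against 164, 464 and 112, with overlapping groups (-2.01 ± 0.95).

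**Figure D4:**
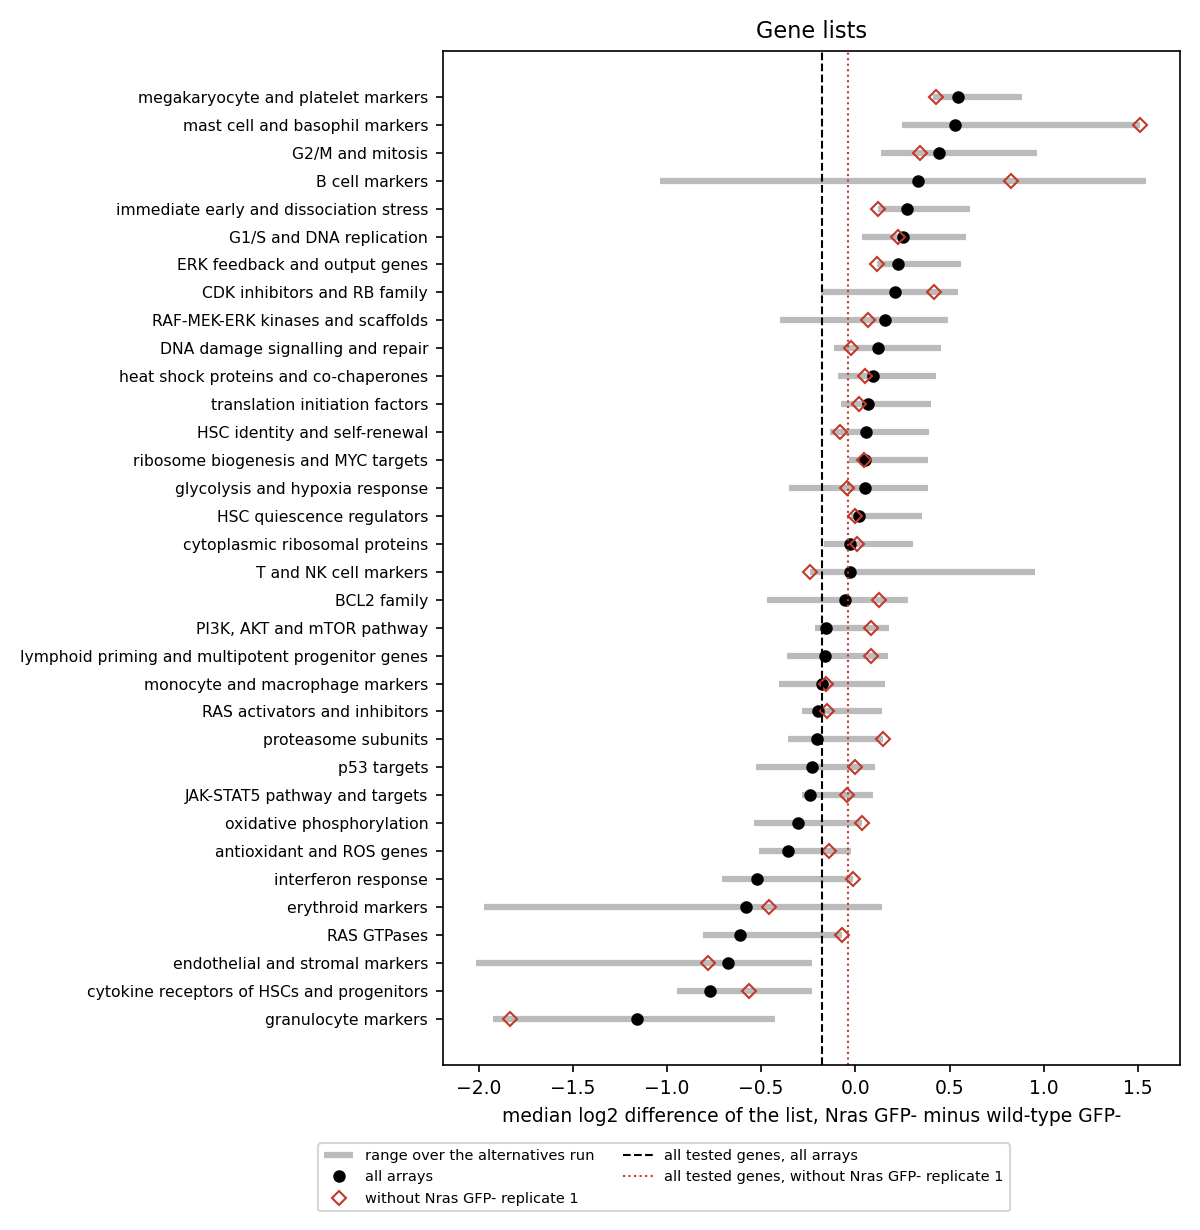
Median log2 difference of 34 gene lists (black points), with the range over the alternatives run (grey bars) and the value without Nras GFP- replicate 1 (open red diamonds). The list of sex-linked transcripts is not drawn. Vertical lines mark the median over all tested genes, -0.18 with all arrays (dashed) and -0.04 without that replicate (dotted). The ERK output, G1/S, G2/M, immediate early, megakaryocyte and mast cell lists lie above 0 throughout their ranges. The median over all tested genes itself ran from -0.29 with the mean over probe sets to 0.16 with median centring. A range that stays above 0 is therefore no measure of a list against all genes. The interferon list moves from -0.52 to -0.01 without that replicate.

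Markers of other blood cells were read next, since a sort can hold other cells, and in bulk RNA fewer cells of a type and less RNA per cell cannot be told apart. Mast cell and basophil markers were higher in Nras GFP- in 7 of 8 tested genes, with a median of 0.53, or 1.51 without Nras GFP- replicate 1. Of the 8, 3 were higher at an unadjusted p under 0.05, against 0.968% of all genes, and the groups did not overlap in 4, against 4.07%. Hdc, the enzyme that makes histamine, read 297, 506 and 46.2 against 8.8, 5.7 and 6.2 (4.82 ± 1.75). Mcpt8, a basophil protease, read 49.7, 64.8 and 49.3 against 4, 12.4 and 7.3 (2.92 ± 1.32), and Fcer1a, a chain of the IgE receptor, 2.9, 184 and 82.6 against 1.3, 1.6 and 0.9 (4.84 ± 2.00). These signals were low except in a few mutant samples, and Fcer1a in the first of them was near the bottom of its array. Mcpt8 and Fcer1a passed the filter through mutant arrays alone, and 8 of the 14 list genes on the array passed it. The counts given for this list are therefore partly set by the filter and do not test it. The defining marker Cpa3 differed by 0.25 ± 1.84, and Ms4a2 read 2.9 to 34.8 and was not tested.

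Granulocyte markers had a median of -1.16, with 6 of 16 genes higher. At an unadjusted p under 0.05, 2 were higher, against 0.968% of all genes, and 2 lower, against 3.42%. Elane read 28.4, 118 and 107 in Nras GFP- and 27.2, 23.3 and 1.3 in wild-type GFP-, every mutant sample higher. Mpo read 30.6, 3690 and 3229 against 1082, 811 and 83.7, with overlapping groups. Ngp and Ltf, proteins of the secondary granules, differed by -4.42 ± 1.60 and -4.37 ± 1.63. Ltf read 10.1, 7.3 and 45.1 in Nras GFP- and 1014, 20.6 and 1413 in wild-type GFP-, so that its high signals came from 2 wild-type samples. Whether granulocyte RNA in those samples had a part in other differences was not tested.

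Erythroid markers had a median of -0.58 over 12 genes, which ran from -1.97 to 0.14 over the alternatives. Tfrc, the transferrin receptor, read 55.7, 1377 and 1699 against 2315, 2331 and 2415 (-2.21 ± 1.16), and Slc4a1, the anion exchanger of red cells, 17.3, 24.8 and 20.7 against 1499, 48.5 and 33.7 (-2.70 ± 2.00). Every mutant sample was lower in both. Megakaryocyte markers had a median of 0.55, with 9 of 14 genes higher and none at an unadjusted p under 0.05. Of these Tubb1, Selp and Pf4, genes of platelet structure and granules, differed by 3.04 ± 1.75, 1.85 ± 1.17 and 2.12 ± 1.59. Endothelial and stromal markers had a median of -0.67, with 3 of 14 genes higher. Emcn, a sialomucin of endothelium and HSCs, read 29.6, 58.9 and 431 against 685, 561 and 809.5 (-2.90 ± 0.98), and Cxcl12, the niche chemokine, 24.4, 27.6 and 3.9 against 68.7, 44.9 and 239 (-2.71 ± 1.07). Sparc, a matrix protein, differed by -1.82 ± 1.20.

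The same genotypes were also compared in GFPhigh, quiescent cells, which share no sample with the GFP- comparison. The GFPhigh arrays did enter the filter and the common estimate of spread behind the choice of genes. In GFPhigh cells also no gene passed the adjusted threshold in limma (0%), and 1002 genes, or 8.29%, were at an unadjusted p under 0.05, 383 of them higher (3.17%) and 619 lower (5.12%). The groups did not overlap in 1510 genes (12.5%), 620 higher (5.13%) and 890 lower (7.36%), and 46.1% of genes were above 0. Of all tested genes 54.3% differed in the same direction in both populations. Of the 15 higher genes 7 did so, or 46.7%, and of the 15 lower genes 11, or 73.3%. Over the larger sets at an unadjusted p under 0.05 with groups apart in GFP- cells, 55 of 91 higher genes (60.4%) and 165 of 277 lower genes (59.6%) did so.

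Gem was the 1 of the 15 higher genes whose groups were also apart upward in quiescent cells. There it read 5387, 2460 and 4996 in Nras GFPhigh and 732, 558 and 1012 in wild-type GFPhigh, a difference of 2.44 ± 0.53 (limma adjusted p = 0.41). Its interaction, the difference in GFP- minus that in GFPhigh, was 1.0 ± 0.75. Dock3 and Rdh13 were the 2 of the 15 lower genes apart downward in both. Dock3 read 26.0, 104 and 32.3 in Nras GFPhigh against 319, 148 and 209.8 (-2.28 ± 1.02). Dusp1 and Pcna differed by 0.83 ± 0.42 and 0.32 ± 0.14 in GFPhigh cells, close to their values in GFP- cells. Ccnd1 differed there by 0.18 ± 0.34 (interaction 0.97 ± 0.48) and Ifitm1 by -0.03 ± 0.18 (interaction -0.68 ± 0.25).

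The interaction was tested across all genes, and none passed an adjusted p under 0.05 in limma (0%). At an unadjusted p under 0.05 there were 566 genes, or 4.68%, of which 272 (2.25%) were above 0 and 294 (2.43%) below, while 46.1% of all genes were above 0. The smallest adjusted p was 0.27. No gene difference is therefore shown to be particular to cycling cells. Among lists, granulocyte markers had a median of 2.67 in GFPhigh against -1.16 in GFP- cells, and endothelial and stromal markers 1.0 against -0.67. For ERK output genes the medians were 0.11 and 0.23, and for G2/M genes 0.78 and 0.45. The differences between these medians were not tested.

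**Figure D5:**
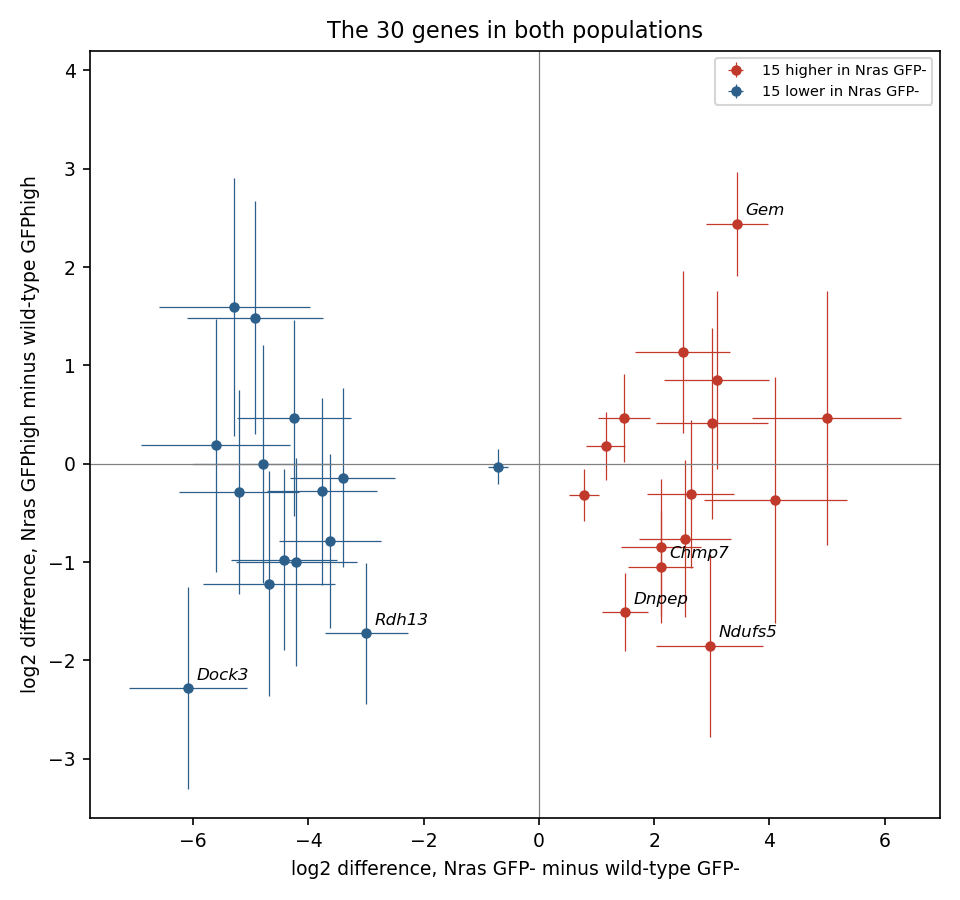
Log2 difference between Nras and wild-type in GFP- cells (horizontal axis) and in GFPhigh cells (vertical axis) for the 15 higher and 15 lower genes, with bars of 1 SE. Gem lies in the upper right, at 3.44 and 2.44, and Dock3 in the lower left, at -6.09 and -2.28, while Dnpep, Chmp7 and Ndufs5 lie below 0 in GFPhigh cells.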

How the data were processed

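RNA of 12 samples was measured on Affymetrix arrays. The deposited values are intensity on a linear scale, and the submitters' processing notes name MAS5 for them. Its version is not stated there. In all there are 45101 probe sets, 64 of them controls. Of the others 34945 carry 1 gene symbol, 932 several and 9160 none in the platform annotation, and only the first kind was used, for 18193 genes. The array number limits the precision, since arrays give no counts.

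Signals were taken to log2 without further scaling, with 3 values of 0 set to 0.1, and each gene was read on its probe set of highest mean. One limma model with 4 group means and an intensity trend was fitted over all 12 samples and tested on simulated data. Adjusted p-values are two-sided, Benjamini-Hochberg over 12085 genes, called under 0.05. Samples were grouped by title. Named genes are the 15 of smallest p each way by the rule in the text, those of the up to 3 of smallest p per list that the text describes, and 21 tested genes of a set list. The lower members of the ERK output list are given besides and do not count among the named genes. The genes, lists and members were chosen with earlier results of these data known. Alternatives covered filters, quantile normalization, median centring, pseudocounts of 32 and 100, probe set choice, array weights, a replicate block, a term for replicate 3, fewer samples and each GFP- sample left out. Added after seeing the data were quantile normalization with weights or with a pseudocount of 100, and the 6 GFP- samples alone with that pseudocount. Same-numbered samples of the 2 groups correlated at -0.04, 0.05 and 0.05 in their deviations, so the numbers were not taken as pairs. The fits used limma 3.58.1 and statmod 1.5.0 under R 4.3.3. Tables and figures used pandas 2.3.3, numpy 2.4.6 and matplotlib 3.10.9 under Python 3.11.15.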

Additional observations from a re-analysis of the deposited data

Results flagged for a closer look

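In 6 of the named genes the samples of the genotypes lay apart in both populations but in opposite directions, and the interaction test did not pass in any of them (limma adjusted p 0.84 for Dnpep and 0.96 for the other 5). The interaction, the log2 difference in GFP- minus that in GFPhigh cells, was 2.998 for Dnpep and 3.16 for Chmp7, both higher with the mutation in GFP- and lower in GFPhigh cells. Dnpep read 1042, 1259 and 2031 in Nras GFPhigh and 4117, 5875 and 2520.1 in wild-type GFPhigh, and its sign in GFP- cells depends on the probe set. The interaction was -1.57 for Sdhb, -0.99 for Dnajb9, -9.61 for Ngp and -6.62 for Cxcl12, which were lower with the mutation in GFP- and higher in GFPhigh cells. Ngp read 1659, 8790 and 502 in Nras GFPhigh against 386, 11.5 and 33.9, and Cxcl12 read 1412, 602 and 701 against 21.6, 49.3 and 167. Ngp marks granulocytes and Cxcl12 stromal cells, and of their lists 14 of 16 granulocyte and 12 of 14 endothelial and stromal genes were higher with the mutation in GFPhigh cells. Groups of 3 samples were not tested for outliers.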

How the results depend on the processing

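Gene calls in limma stayed at 0 under all but 3 alternatives. With quantile normalization plus array weights, and with quantile normalization plus a pseudocount of 100, 2 genes passed, Gem and Ifitm1, and under the latter 1 gene passed the interaction, Ncam2. Both of these settings were added after seeing the data. Leaving out 1 GFP- sample gave 0 to 8 calls and 322 to 1158 genes at an unadjusted p under 0.05 (530 with all samples). The 8 calls and 1158 genes came without Nras GFP- replicate 3, and the 8 (Dock3, Gdpd1, Glrx2, Hid1, Kank2, Mrpl52, Plxdc2 and 4933439C10Rik) were all lower. That count was 322 without Nras GFP- replicate 1, 341 without wild-type GFP- replicate 3, 281 with a filter at the 75th percentile (7300 genes tested) and 1045 over every probe set (23130 tested). The share higher was 22.1%, against 42% with median centring, 37.1% without the 4 arrays of weight under 0.6, 35.4% and 35.6% under the quantile combinations, and 14.9% with the mean over probe sets, 16.7% without Nras GFP- replicate 2 and 18.2% without replicate 3. Replicate numbers used as a block gave 0 calls and 610 genes at an unadjusted p under 0.05. Replicate 3 of both groups shared its low Xist, and a term for it gave 0 calls and 549 such genes.

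Of 99 named genes 88 kept their sign in all alternatives run. Much of this was fixed in advance, so the count is no test of stability. Genes chosen for groups that did not overlap cannot turn when a sample is left out. The replicate terms, the GFP- samples alone and a fit without the intensity trend leave the difference itself unchanged. Median centring turned Kit to 0.047, Cd34 to 0.22 and Stat5a to 0.18. The mean over probe sets turned Slamf1 to -0.20, and leaving out shared probe sets turned it to -3.08, Dnpep to -1.83 and Foxo1 to -0.27. Array weights gave Cd34 0.15 and Spry2 -0.10, and with quantile normalization 0.052 and -0.06, and Cish 0.07. Without Nras GFP- replicate 1, as without the 4 low-weight arrays, Cd34 was 0.35, Spry2 -0.28, Stat5b -0.07 and Cish 0.33. Ncam2 was 0.005 under quantile normalization with the pseudocount. With 1 GFP- sample left out, Cd34 ran from -0.431 to 0.354, Spry2 from -0.278 to 0.553, Stat5b from -0.07 to 0.953, Cish from -1.424 to 0.329 and Cdkn1c from -0.056, without Nras GFP- replicate 3, to 0.934. Spry2 was also below 0 without Nras GFP- replicate 3 (-0.07) and without wild-type GFP- replicate 2 (-0.133), and Cd34 above 0 without wild-type GFP- replicate 1 (0.056). The cause of these changes was not tested. Dim signals set a limit: the median SE was 1.18 in the dimmest 3022 genes.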

Other observations

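Lists not described above also had no gene past the adjusted threshold. DNA damage and repair genes had a median of 0.12, with 12 of 23 genes higher, and antioxidant genes a median of -0.36, with 8 of 19 higher. BCL2-family genes had a median of -0.06 and genes of lymphoid priming and multipotent progenitors -0.16. Without Nras GFP- replicate 1 these 4 medians were, in the same order, -0.02, -0.14, 0.12 and 0.08. Over 6 markers of monocytes and macrophages the median was -0.18, B cell markers 0.33 over 6 and T and NK cell markers -0.03 over 7, and 0 members of these lists were at an unadjusted p under 0.05.

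Probe sets that were not chosen to stand for a gene give another reading from the same samples. Of 10989 such probe sets that passed the filter, 57% had the sign of the gene's chosen probe set. For genes at an unadjusted p under 0.05 this was 51% of 149 probe sets on the higher side and 78.9% of 289 on the lower side. Their median difference was 0.003 beside genes that were higher and -0.82 beside genes that were lower.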
